A study of Rattus norvegicus with 12 samples.

Results

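The subject is 4 genes that encode effector cytokines, Ifng, Il2, Tnf and Csf2, which were taken by their Ensembl identifiers (ENSRNOG00000007468, ENSRNOG00000017348, ENSRNOG00000055156 and ENSRNOG00000026805) from the 32754 gene rows of a rat T cell data set. RNA was sequenced from CD4+ T cells reactive to beta-synuclein, a protein of neurons, which had been given intravenously to LEW/Crl (Lewis) rats and sorted again 3 days later. Wild-type (wt) cells were taken from blood, and b-syn TCR Tg cells, which carry a transgenic T cell receptor for beta-synuclein, from blood, from the meninges of the brain and from the brain parenchyma, with 3 libraries in each of the 4 groups. All groups are therefore transferred, antigen-specific cells, and none is a naive or unselected population. The titles of the parenchyma samples carry the digit 4 where the other samples carry 3, and if that digit is a day, tissue and day cannot be told apart in the parenchyma. Whether the replicates are separate rats is not stated, and p-values therefore reflect the spread among these libraries, which may be technical.

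Effector cytokines are the secreted proteins through which a CD4+ T cell acts on other cells, and most are transcribed for a short time after the T cell receptor meets its antigen. The signal reaches their promoters through factors such as NFAT, AP-1 and NF-kB. Interferon gamma (Ifng) activates macrophages and microglia and raises antigen presentation, interleukin 2 (Il2) is the growth factor of T cells, tumour necrosis factor (Tnf) is a general inflammatory signal, and GM-CSF (Csf2) acts on myeloid cells and is linked to disease in models of brain autoimmunity.

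The promoters of the 3 genes that were higher in both brain compartments than in transgenic blood are shown. NFAT binds a short core, GGAAA, in genes of this kind. The stretches are from RefSeq on build GRCr8, in which the table held all 4 genes by symbol, while the counts were made on build rn6. Each begins 250 bases before the start of the gene in RefSeq and ends with the last TATA-like hexamer (TATANA on the gene's strand). Capitals mark GGAAA on either strand and that hexamer.
Ifng, chr7:55788930-55789046, plus strand: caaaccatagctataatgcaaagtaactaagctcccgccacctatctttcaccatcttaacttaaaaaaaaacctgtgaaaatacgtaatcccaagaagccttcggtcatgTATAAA
Il2, chr2:121937732-121937922, minus strand: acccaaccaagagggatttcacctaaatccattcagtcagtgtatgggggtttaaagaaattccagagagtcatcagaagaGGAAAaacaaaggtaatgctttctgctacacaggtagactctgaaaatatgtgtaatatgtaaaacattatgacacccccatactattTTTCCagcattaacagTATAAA
Csf2, chr10:38889731-38889923, minus strand: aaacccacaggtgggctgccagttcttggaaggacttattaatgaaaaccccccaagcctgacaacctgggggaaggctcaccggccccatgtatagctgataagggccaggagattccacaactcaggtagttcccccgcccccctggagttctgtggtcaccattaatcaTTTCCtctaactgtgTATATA

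Within the 250 bases before the start, GGAAA was found at 2 places for Il2 and at 1 place for Csf2. The single match of Ifng lies 29 to 25 bases before its RefSeq start, past the stretch printed. Tnf, whose row held almost no counts, had 3 matches, the most of the 4 genes. Of 33469 promoters of the same length, 56.9% held GGAAA on either strand, so its presence does not set these genes apart. A TATA-like hexamer was found for each of the 4 and in 17.9% of all promoters, counted on the gene's strand. That of Ifng lay farthest out, 139 to 134 bases before the RefSeq start. Those of Il2, Tnf and Csf2 lay at 65 to 60, 46 to 41 and 63 to 58 bases. AP-1 letters (TGANTCA), searched on both strands, had 0 matches in each of these promoters and at least 1 in 6.34% of all. No match says only that these letters are not in this window.

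The depth of the libraries ran from 16643832 to 38601400 counts. Levels are given as CPM, the gene's count scaled to a library total of 1000000, which does not correct for gene length, so that levels are compared between samples of a gene and not between genes. In bulk RNA, fewer cells that transcribe a gene and less RNA per cell cannot be told apart. Markers of T cells and of other cell types that make these cytokines could not be looked up, since the files carry no gene names.

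Ifng was low in blood and high in both brain compartments. In wild-type blood it stood at 5.88, 2.14 and 2.04 CPM in replicates 1, 2 and 3. Transgenic blood held 11.8, 11.3 and 9.97 CPM, the meninges 527, 1790.0 and 1327 CPM, and the parenchyma 1103, 1048 and 521 CPM. Every transgenic blood library was above every wild-type one, and every brain library was more than an order of magnitude above blood. Meninges and parenchyma overlapped, with meninges replicate 1 and parenchyma replicate 3 the low library of each. At its highest, in meninges replicate 2, Ifng took 0.179% of all counts.

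Il2 was close to the limit of detection in blood. Transgenic blood held 2, 0 and 4 counts, or 0.0942, 0 and 0.237 CPM, where the 0 of replicate 2 allows up to 0.147 CPM by a floor of 3 counts. Wild-type blood held 10, 15 and 7 counts, or 0.259, 0.411 and 0.234 CPM. These blood groups overlapped, by the narrow margin between 0.237 and 0.234 CPM. The meninges reached 10.8, 40.3 and 33.4 CPM and the parenchyma 10.1, 13.5 and 5.80 CPM. Again meninges replicate 1 and parenchyma replicate 3 were the low libraries, and meninges replicate 1 lay within the range of the parenchyma.

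By mean, Csf2 had the order of the transgenic groups seen for Ifng and Il2, but the genotype order of Il2 and not of Ifng. Levels in blood were 2.02, 2.41 and 1.77 CPM in wild-type and 1.37, 1.66 and 0.772 CPM in transgenic cells, so that every transgenic library was below every wild-type one. The meninges held 71.0, 134 and 113 CPM and the parenchyma 123, 92.0 and 45.5 CPM, and these groups overlapped. The low library of each compartment was the one already low for Ifng and Il2. Parenchyma replicate 3 was also the library with most genes detected, 17095 against 14409 to 15725 in the other 11 libraries, and the part of this in its low cytokine values was not tested.

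**Figure D1:**
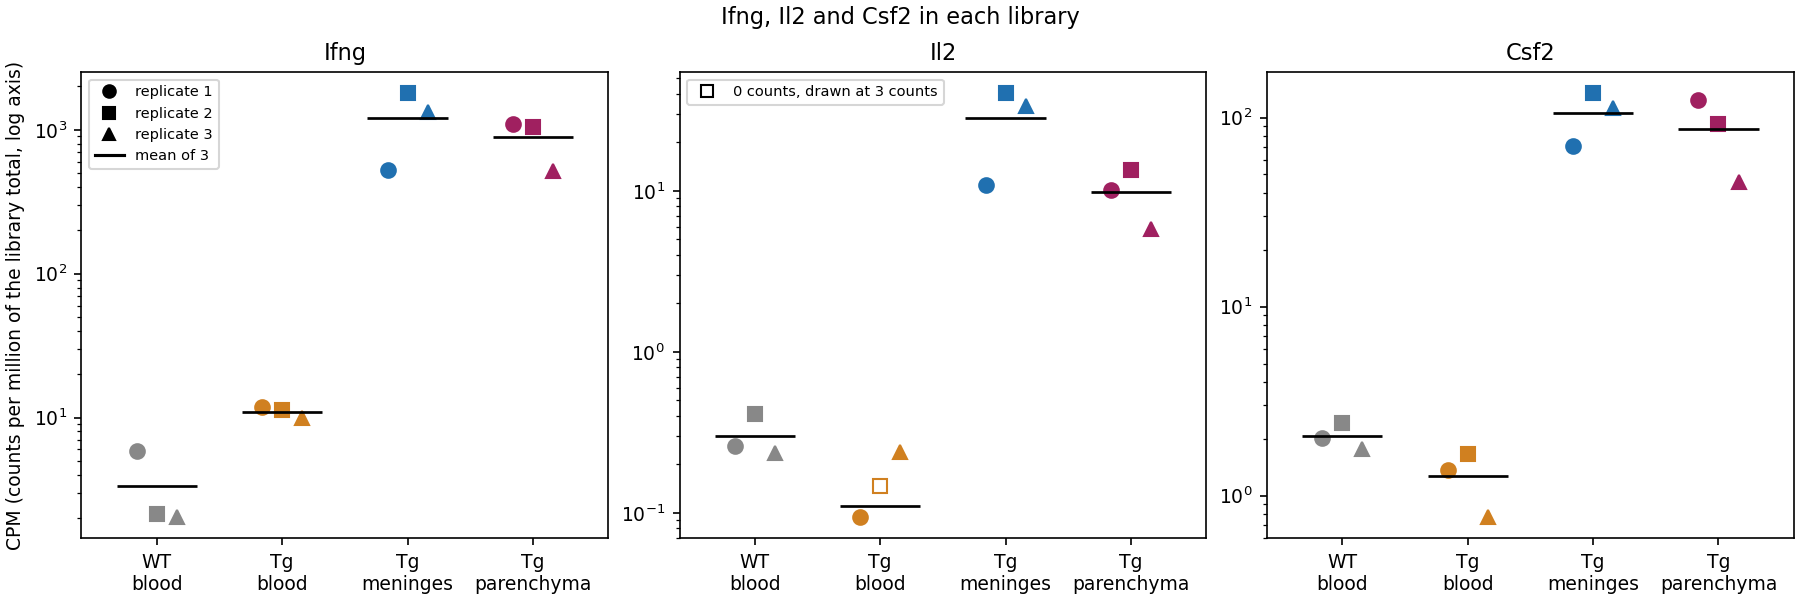
CPM of Ifng, Il2 and Csf2 (log axis) in each of the 12 libraries by group (WT, wild-type; Tg, transgenic), with symbols for replicates 1 to 3 and a line at the mean of 3. The open symbol is the library with 0 Il2 counts, drawn at the floor of 3 counts. Each brain library lies far above each blood library, and meninges replicate 1 and parenchyma replicate 3 are the low ones for every gene.

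The row of Tnf held 3 counts in all 12 libraries together. One was in transgenic blood replicate 2 (0.0489 CPM), 2 were in meninges replicate 1 (0.0851 CPM), and the other 10 libraries had 0. Over the 3 libraries of a group, a count of 0 allows up to 0.0286 CPM in wild-type blood and up to 0.0437 CPM in the parenchyma, for counting error only. Tnf was thus never tested, and no fold is given. Rows with so few counts are common in these files: 12342 had none in any library and 3012 had 1 to 3 in all. The row gives no level for the Tnf transcript and does not show that the cells lacked it, with the counting of reads that fit several places or genes not given in the sources used here.

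Cells in the meninges were compared with circulating cells of the same genotype, to ask what changes at the border of the brain. All 3 testable cytokine genes rose: Ifng from 11.0 ± 0.948 to 1215 ± 639 CPM, Il2 from 0.111 ± 0.120 to 28.2 ± 15.4 CPM and Csf2 from 1.27 ± 0.454 to 106 ± 32.2 CPM (SD, n = 3). Calls were made with edgeR's quasi-likelihood test and Benjamini-Hochberg adjustment at 0.05 over the 11809 genes tested, of which 4.76% were called higher. All 3 were also among the 13.5% of tested genes whose meningeal libraries all lay above the blood libraries. The log2 fold change was 6.83 for Ifng (SE 0.51, adjusted p = 8.11e-05), 6.41 for Csf2 (SE 0.46, adjusted p = 7.48e-05) and 8.05 for Il2 (SE 0.79, adjusted p = 0.000429), in edgeR.

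By fitted fold, these were among the largest rises in the meninges. A larger fitted rise than that of Il2 was seen in 6 of the 11809 genes tested, than that of Ifng in 19 and than that of Csf2 in 26, and the median log2 fold change of all genes was 0.00. The position of Il2 rests on 6 blood counts. Its pooled counts gave a ratio of 270.0 with an exact 95% binomial interval of 124 to 737, and its log2 fold change was 7.43 without transgenic blood replicate 2, which held 0 counts, and 9.08 without replicate 3, which held 4. For Ifng and Csf2, with 649 and 76 counts in blood, the same ratios were 106 (98.1 to 115) and 80.3 (64.1 to 102). These intervals cover counting error only.

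Parenchymal cells were compared with the same blood libraries, which the meningeal comparison also uses, so that the pair of comparisons are not independent. In the brain tissue, too, all 3 testable genes rose, Ifng to 890.3 ± 321 CPM, Il2 to 9.81 ± 3.86 CPM and Csf2 to 86.9 ± 39.1 CPM (SD, n = 3). Here 18.7% of 11809 tested genes were called higher, and 24.2% had every parenchymal library above blood, as the 3 cytokine genes had. In edgeR the log2 fold change was 6.32 for Ifng (SE 0.50, adjusted p = 2.73e-05), 6.47 for Il2 (SE 0.79, adjusted p = 0.000297) and 6.06 for Csf2 (SE 0.46, adjusted p = 2.22e-05).

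Larger rises were more common in this tissue. Between 134 genes, for Il2, and 153 genes, for Csf2, had a larger fitted rise than the cytokine, and 141 had one larger than Ifng. The ratio of pooled Il2 counts, 649 in the parenchyma to 6 in blood, was 92.2 (exact 95% binomial interval 42.1 to 252). On the log2 scale the fitted rise of Il2 was 5.84 without transgenic blood replicate 2 and 7.50 without replicate 3, both called by edgeR.

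**Figure D2:**
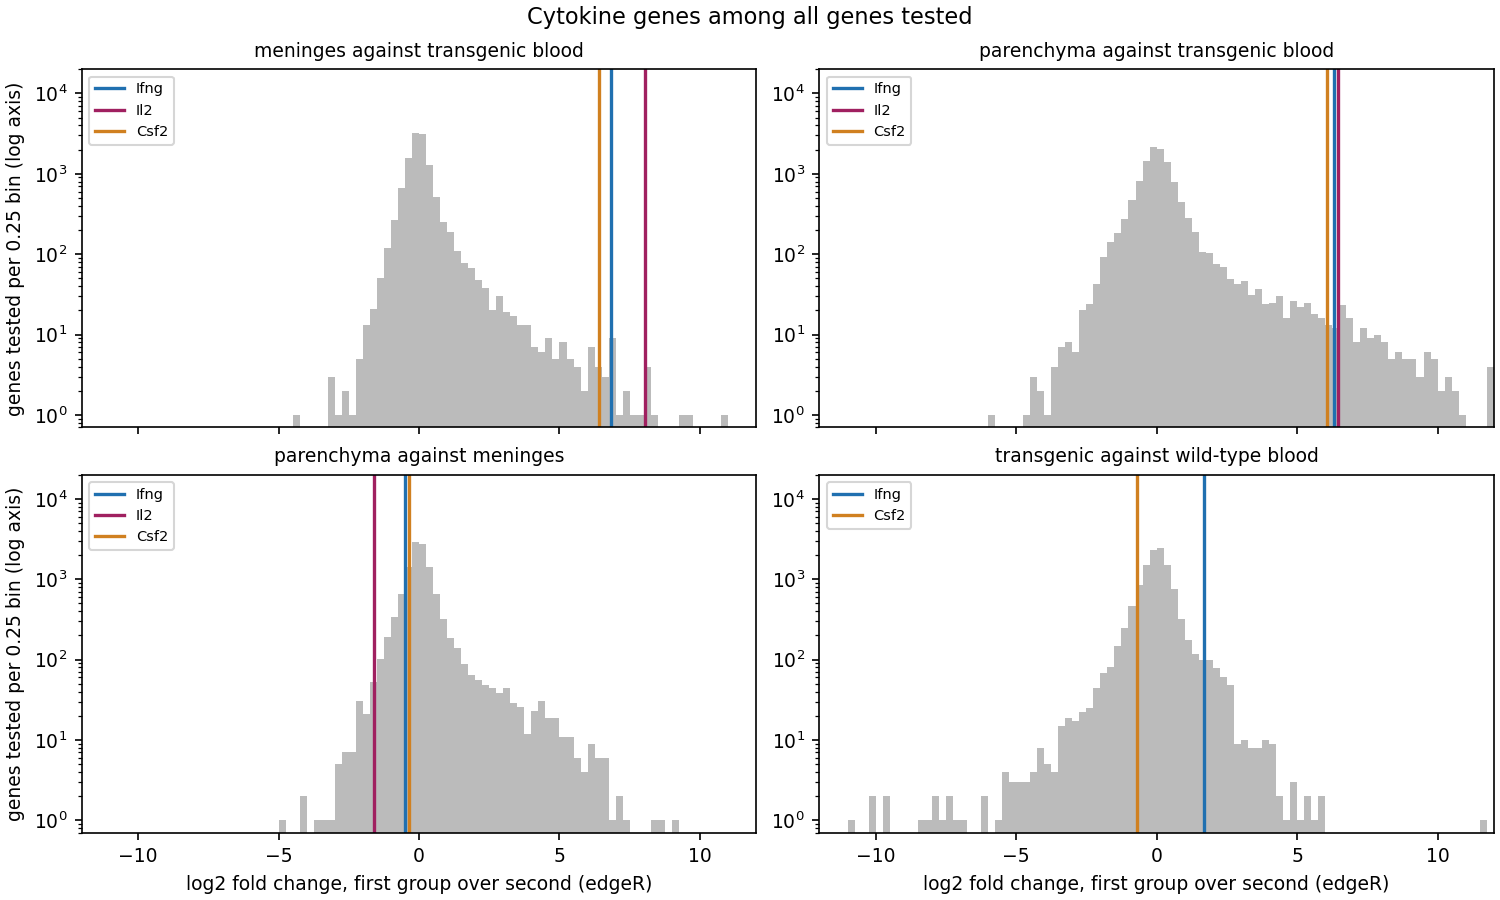
Number of tested genes (log axis) by edgeR log2 fold change in bins of 0.25 for the 4 comparisons, with lines at the cytokine genes; values beyond 12 are drawn in the end bins. The lines lie in the far right tail for meninges against blood, in a fuller tail for parenchyma against blood, and nearer the centre in the other comparisons.

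The brain compartments were then set against each other. The cytokine genes were lower on average in the parenchyma, and edgeR called 0 of the 3 at an adjusted p under 0.05. By unadjusted p under 0.05 it was 1 gene, Il2, and DESeq2 called the same 1 gene. Among all 11809 genes tested, 7.48% were called lower. Il2 had a log2 fold change of -1.58 (SE 0.51, unadjusted p = 0.0112, adjusted p = 0.0630 in edgeR), a 3.00-fold lower level, with an approximate 95% interval from -2.83 to -0.34. The adjusted p over the other settings ran from 0.00517 to 0.221, and 4 of 17 settings passed the threshold: DESeq2 (0.00517), no filter on low counts (0.0346), omission of meninges replicate 1 (0.0304) and omission of parenchyma replicate 2 (0.0478). A fall of Il2 from meninges to parenchyma is therefore not settled by these libraries.

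For Ifng the difference was -0.51 (SE 0.39, adjusted p = 0.416 in edgeR) on the log2 scale, with an approximate 95% interval from -1.47 to 0.44. For Csf2 it was -0.35 (SE 0.34, adjusted p = 0.526 in edgeR), with an interval from -1.18 to 0.48. These intervals still hold differences of more than 1 log2 unit, so the data do not show that the compartments had the same level.

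**Figure D3:**
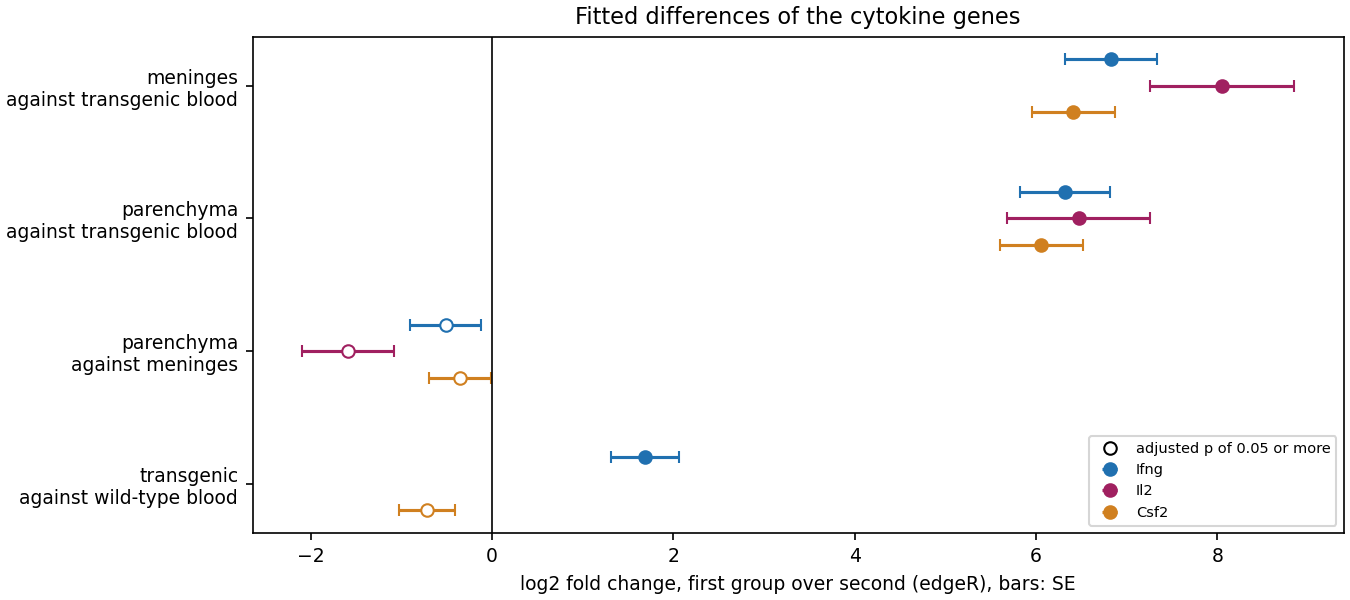
Log2 fold change (first group over second, edgeR) of Ifng, Il2 and Csf2 in 4 comparisons, with bars for the SE and open symbols where the adjusted p was 0.05 or more. The brain compartments stand at 6.06 to 8.05 against blood, the values of parenchyma against meninges lie below 0 with open symbols, and in transgenic against wild-type blood Ifng lies above and Csf2 below 0. Il2 did not pass the filter on low counts in the last comparison and is not drawn there.

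Since the same library was the low one for all 3 genes in each brain compartment, though not in blood, the genes were also set against each other within each library. A ratio of counts of a pair of genes does not depend on library size, and the lengths cancel when the same ratio is compared between libraries. Il2 stood at 2.05, 2.25 and 2.52 counts per 100 Ifng counts in the meninges and at 0.919, 1.29 and 1.11 in the parenchyma. The compartments did not overlap on this scale, whereas they did in CPM. Means were 2.27 ± 0.234 and 1.11 ± 0.185 (SD, n = 3), a 2.05-fold difference with an exact permutation p of 0.1, the smallest that 3 libraries against 3 allow in a two-sided test, and an adjusted p of 0.3 over the 12 ratio comparisons made. Il2 per 100 Csf2 counts was 15.2, 30.0 and 29.6 in the meninges and 8.22, 14.7 and 12.7 in the parenchyma, again without overlap and with the same exact permutation p of 0.1. Each of these ratios was lower in every parenchymal library, but both use the same Il2 counts and are not independent. How many other genes separate the compartments by a ratio to Ifng or Csf2 was not counted. The ratios therefore do not settle a fall of Il2 either.

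The proportion of Csf2 to Ifng overlapped among the transgenic tissues. It was 9.82 ± 3.19 per 100 Ifng counts in the meninges, 9.57 ± 1.39 in the parenchyma and 11.4 ± 3.53 in transgenic blood (SD, n = 3). A test of 3 libraries against 3 cannot go below 0.1, so it does not show that the proportions were the same. The range over the 9 transgenic libraries was 7.50 to 14.8, while from blood to parenchyma the mean CPM was 80.8-fold higher for Ifng and 68.6-fold higher for Csf2. For Il2 the ratio to Ifng in transgenic blood, 0.797, 0 and 2.38, is too thinly counted to be placed.

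Relative to Ifng, Csf2 and Il2 counts were higher in every wild-type than in every transgenic blood library, in ratios that share the Ifng counts. Csf2 stood at 34.4, 113 and 86.9 per 100 Ifng counts in replicates 1, 2 and 3, above every transgenic library of any tissue. Against transgenic blood its mean was 6.87-fold higher, with an exact permutation p of 0.1, the smallest possible, and an adjusted p of 0.3. The test therefore cannot settle a difference in proportion between the genotypes. This ratio joins the higher Ifng and the lower Csf2 of transgenic blood, from the same counts, and is not independent of them. How many other genes separate the genotypes by a ratio to Ifng was not counted. Il2 stood at 4.41, 19.2 and 11.5 per 100 Ifng counts, from 10, 15 and 7 Il2 counts. Every transgenic blood library was below these values, again with an exact permutation p of 0.1 and an adjusted p of 0.3. The exact 95% interval of replicate 1 (2.08 to 8.25) overlapped that of transgenic blood replicate 3 (0.641 to 6.21, from 4 Il2 counts), so no fold between the genotypes is given for this ratio. For the pair Il2 and Csf2 the genotypes overlapped, at 14.4 ± 2.33 Il2 per 100 Csf2 counts in wild-type and 12.6 ± 16.1 in transgenic blood (SD, n = 3), where the transgenic values rest on 2, 0 and 4 Il2 counts.

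**Figure D4:**
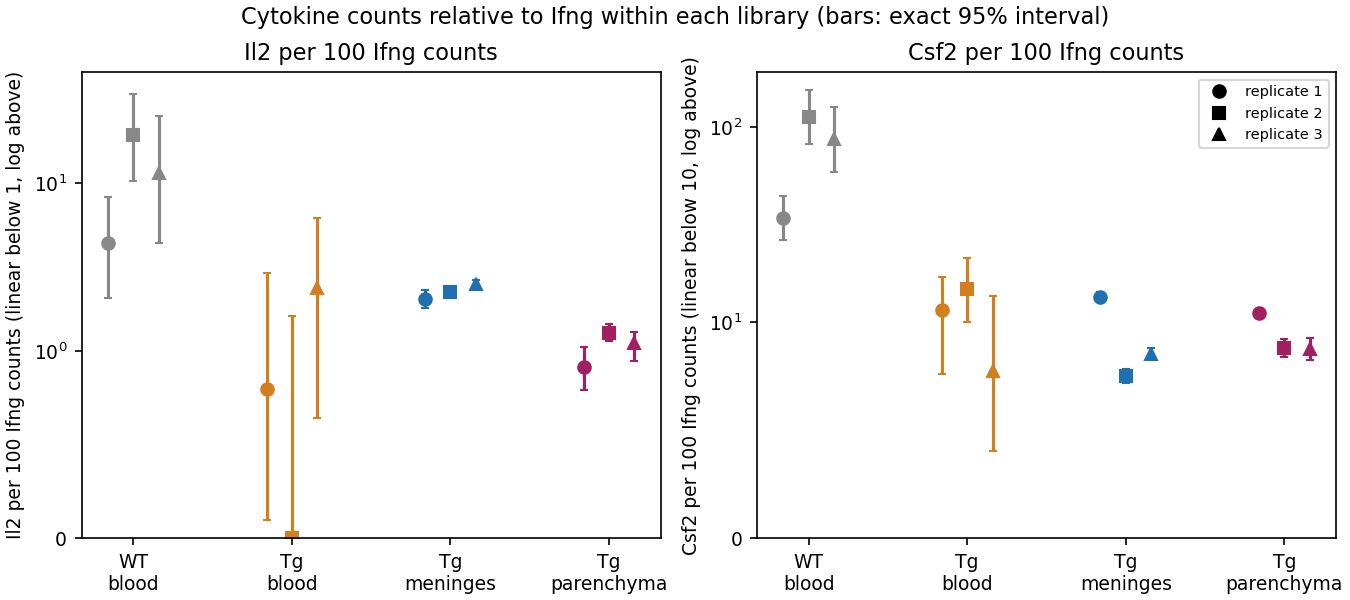
Counts of Il2 (left) and Csf2 (right) per 100 Ifng counts in each of the 12 libraries by group (WT, wild-type; Tg, transgenic), with exact 95% binomial intervals for counting error and an axis that is linear near 0 and logarithmic above. For Il2 the meninges span 2.05 to 2.52 and the parenchyma 0.919 to 1.29, and the wide intervals in blood reflect few Il2 counts. For Csf2 the wild-type libraries lie above all others.

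Wild-type and transgenic cells could be compared in blood alone, where both had been sequenced. These groups also differ in depth, and the part of genotype in any difference was not tested. Ifng was higher in transgenic cells, at 11.0 ± 0.948 against 3.35 ± 2.19 CPM (SD, n = 3). Its log2 fold change was 1.68 (SE 0.38, adjusted p = 0.0104 in edgeR), in a comparison in which 13.1% of 11618 tested genes were called higher and 23.6% had every transgenic library above every wild-type one. Wild-type replicate 1, at 5.88 CPM, was 2.89-fold above the lowest wild-type library, and without it the log2 fold change of Ifng was 2.39 (adjusted p = 0.000156 in edgeR). The adjusted p over all other settings lay between 2.2e-05 and 0.0384.

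Csf2 leaned the other way, with 1.27 ± 0.454 CPM for transgenic and 2.07 ± 0.325 CPM for wild-type blood (SD, n = 3). Its log2 fold change was -0.71 (SE 0.31, unadjusted p = 0.0448, adjusted p = 0.116 in edgeR) and did not pass the threshold. Of all tested genes, 12.8% were called lower and 20.2% had every transgenic library below every wild-type one, as Csf2 had. Il2 did not pass the filter on low counts. Its pooled counts, 6 in transgenic and 32 in wild-type blood, gave a ratio of 0.337 (exact 95% binomial interval 0.115 to 0.816, counting error only), and a fit without the filter gave a log2 fold change of -1.52 (SE 0.78, adjusted p = 0.191 in edgeR). Wild-type libraries were the deeper ones, at 29959282 to 38601400 counts against 16848739 to 21229957 in transgenic blood. Labels name more than one library kit without saying which sample had which, so a kit and a group cannot be told apart.

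In order of level, Ifng thus ran from wild-type blood through transgenic blood to parenchyma and meninges, with edgeR calls between the first pair and between blood and brain, and none between parenchyma and meninges. Il2 and Csf2 ran from transgenic blood through wild-type blood to parenchyma and meninges, and the genotypes were not told apart by an edgeR call for Csf2, nor for Il2 in the fit without the filter on low counts. Wild-type blood was not tested against the brain compartments, which differ from it in genotype as well as tissue.

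The genes most like each cytokine gene over the 12 libraries were sought by Pearson's r of log2(CPM + 1), among 8762 genes with a mean of at least 10 CPM in some group. The libraries share group, depth and tissue, so r is a description and has no p. The gene nearest to Ifng was ENSRNOG00000005964 (r = 0.992), whose mean level was 0.234 CPM in wild-type blood, 1.43 CPM in transgenic blood, 203 CPM in the meninges and 155 CPM in the parenchyma. It shared the higher level of Ifng in transgenic than in wild-type blood. The gene nearest to Il2 was ENSRNOG00000018714 (r = 0.987), with means of 37.9, 35.1, 95.4 and 77.8 CPM in the same order. Pearson's r does not measure the size of a change. From transgenic blood to the meninges the mean of Il2 went from 0.111 to 28.2 CPM, a far larger rise than that of this neighbour. In blood Il2 lay between 0 and 0.411 CPM, and with 1 CPM added these values differ little, so r hardly reflects differences within blood. Csf2 ranked 27 by likeness to Ifng (r = 0.971) and Il2 ranked 69 (r = 0.950), while Csf2 ranked 5 by likeness to Il2 (r = 0.968). By likeness to Csf2, Ifng ranked 19 and Il2 ranked 23. A rank depends on how many other genes resemble the gene it is taken from, so ranks from different genes are not compared. No symbol could be given to the neighbours, since no table at hand pairs these identifiers with names.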

How the data were processed

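Whole-number counts per gene were deposited by the authors, 1 table per library. The submitters' processing notes name build rn6, STAR 2.5 and featureCounts 1.5.0-p1, with annotation, strand and multi-mapping settings not given in the sources used here. Reads of overlapping or antisense partners could not be separated. Groups and replicate numbers came from the titles and characteristics. The lowest chi-square per degree of freedom between replicates was 13.9, so no library was a copy of another.

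Genes were kept by filterByExpr (minimum count 10), scaled by TMM and tested with edgeR 4.0.16 in R 4.3.3 (quasi-likelihood F test, two-sided, Benjamini-Hochberg over all genes tested). The fit of tissues held the 9 transgenic libraries (11809 genes, 6 residual degrees of freedom) and that of genotypes the 6 blood libraries (11618 genes, 4 residual degrees of freedom). The SE is the log2 fold change divided by the square root of F, and approximate intervals use the residual degrees of freedom. The procedure was tested on simulated data. Ratios were tested by exact permutation (scipy 1.17.1). Alternatives were DESeq2 1.42.0, limma-voom 3.58.1, other scalings and filters, a replicate block, a fit of only the groups compared and omission of each library.

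The cytokine genes were named in every comparison, and of the genes most correlated with them at most 2 identifiers were to be printed where no symbol was known. The members and lists were chosen with earlier results of these data known. The 21 gene lists, which include cell type markers, were written by symbol and could not be tested, since 0 identifiers of the files were in the reference table.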

Additional observations from a re-analysis of the deposited data

How the results depend on the processing

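Ifng, Il2 and Csf2 kept direction and call against transgenic blood in all 17 other settings of either brain compartment, and Ifng in all 13 of the genotype comparison. Leaving out 1 library, the log2 fold change in the meninges ran from 6.44 to 7.17 for Ifng, 7.43 to 9.08 for Il2 and 6.17 to 6.61 for Csf2, and in the parenchyma from 6.13 to 6.58, 5.84 to 7.50 and 5.72 to 6.36. It ran from 1.41 to 2.39 for Ifng in transgenic against wild-type blood. For Il2 in parenchyma against meninges it ran from -1.98 to -1.25, and it was -1.58 with DESeq2 and -1.61 with no filter on low counts, both past the threshold that the reported value missed. The cause was not tested.

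Counts of genes called over the whole table moved more. In meninges against blood, 769 genes became 1338 with DESeq2, 1255 in a fit of only these groups, and 346 to 952 with 1 library left out (359 and 411 without blood replicates 2 and 3, 346 and 400 without meninges replicates 2 and 3). In parenchyma against meninges, 1828 genes became 730 to 2159 with 1 library left out (1103, 730 and 809 without meninges replicates 1, 2 and 3), and 945 higher and 883 lower became 1166 and 700 with library totals in place of TMM. In the genotype comparison, 3002 became 1789 to 2906, with 1789 without transgenic blood replicate 1.

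Replicate numbers did not pair the libraries in every comparison. Correlations of same-numbered deviations from the group means ran from -0.312 to 0.286. Every library correlated best with its own number only in meninges against blood (0.253, 0.266 and 0.0530 for replicates 1, 2 and 3). Whether the libraries of these 2 groups are paired is not settled. With the replicate number as a block, calls were 674, 3671, 1407 and 3126 in the order of the report, no call of a cytokine gene changed, and the adjusted p of Il2 in parenchyma against meninges was 0.109 in edgeR. Few counts limit what can be said of Il2 in blood, at 0 to 15 counts per library, and of Tnf in every group. Why the Tnf row was nearly empty was not tested.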
